A study of Mus musculus with 15 samples.

Results

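Fatty acid desaturases and elongases are the membrane enzymes of the endoplasmic reticulum that decide how long a fatty acid chain is and where its double bonds lie. The 10 mouse genes described here were chosen by symbol, with earlier results of these data known. They are the stearoyl-CoA desaturases Scd1 and Scd2, the fatty acid desaturases Fads1, Fads2 and Fads3, and the elongases Elovl1, Elovl3, Elovl5, Elovl6 and Elovl7. All 10 were among the 35794 Entrez gene IDs of the deposited table, and 9 of them were among the 15208 genes that passed the filter on low counts. Elovl3 did not pass. The RNA came from perigonadal fat, the visceral pad beside the gonads, of C57BL/6 mice aged 14 weeks. Lean mice ate chow, and obese mice ate a 60% high fat diet from 8 weeks of age. The weight loss group had 5 weeks of that diet followed by 1 week of chow. There were 5 lean, 5 obese and 4 usable weight loss libraries, each from poly(A) RNA of snap-frozen pads purified on a caesium chloride gradient. The series calls the samples independent. The labels used here name no single animals, so p-values measure the spread between samples, and they do not say whether pads were pooled.

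Stearoyl-CoA desaturases place a double bond at the ninth carbon of saturated chains and make palmitoleate and oleate, the main monounsaturated fatty acids of stored triglyceride. Scd1 is the main form of mouse fat and liver, and Scd2 is abundant in brain. Fads1 and Fads2 are the delta-5 and delta-6 desaturases that act in turn on the essential polyunsaturated fatty acids, and Fads3 acts on sphingoid bases. Elongases catalyse the first step of a cycle that adds carbons: Elovl6 lengthens palmitate to stearate, Elovl5 lengthens polyunsaturated chains, and Elovl1, Elovl3 and Elovl7 lengthen saturated and monounsaturated chains. Many of these genes are known targets of the transcription factor SREBP-1c, the product of Srebf1, and of other lipogenic factors.

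Scd1 and Scd2 lie on the same chromosome and their transcripts resemble each other, so the part of their sequence that a read can tell apart is shown first. In the GRCm38 (mm10) build with GENCODE M21, Scd1 lies at chr19:44394450-44407709 on the minus strand and Scd2 at chr19:44293676-44306864 on the plus strand. Their coding sequences matched at 962 of 1065 aligned bases, or 90.33%. Over the whole transcripts, 4.562% of the 50-base windows of Scd1 and 3.974% of those of Scd2 also occurred in another gene. In Scd1 coding bases 442 to 501 and Scd2 coding bases 451 to 510 the 60 bases are the same, and a read from there cannot be assigned by sequence. The pair of lines below gives the shared stretch in both genes.
Scd1 442 to 501: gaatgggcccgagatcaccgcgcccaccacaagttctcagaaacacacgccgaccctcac
Scd2 451 to 510: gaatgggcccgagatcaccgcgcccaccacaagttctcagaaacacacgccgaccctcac
The stretch of the same length with the most differences has 24 of 60, in capitals, at coding bases 79 to 138 of Scd1 and 88 to 147 of Scd2.
Scd1 79 to 138: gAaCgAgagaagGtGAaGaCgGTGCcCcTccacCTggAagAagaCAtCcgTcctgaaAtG
Scd2 88 to 147: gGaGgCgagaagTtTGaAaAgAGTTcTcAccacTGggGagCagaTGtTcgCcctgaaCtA
How the authors shared out reads that fit both genes is not given in the sources used here. Fads1, Elovl1, Elovl3, Elovl5 and Elovl7 shared no 50-base window with another gene. Fads2 and Fads3 shared 5 windows with each other, 0.1519% and 0.1275% of their own. In Elovl6, 3.983% of windows also occurred in other genes, none of them among the desaturases and elongases searched.

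The 14 libraries held 13924770 to 33807887 counts each, and a fifteenth, weight loss replicate 5, held 230 and was left out. Levels are counts per 1000000 of the scaled library size (CPM), and are divided by kilobases of exon where genes are compared with each other. The tissue label was checked with 10 adipocyte genes led by Fabp4, which summed to 25259 to 38212 CPM in lean, 21094 to 27773 in obese and 24422 to 37245 in weight loss libraries. Genes of this list differed: Cfd averaged 10097, 3687 and 7377 CPM in lean, obese and weight loss libraries, and Fabp4 7418, 7214 and 7847 CPM. The sum can therefore move with a single abundant gene. In bulk tissue, fewer cells of a type and less RNA per cell cannot be told apart. Markers of other cells moved with the groups: 10 macrophage genes led by C1qa summed to 362 to 792 CPM in lean, 850 to 1285 in obese and 487 to 1191 in weight loss libraries. Markers of adipocyte progenitors, 8 genes led by Ly6a, summed to 598 to 715 CPM in lean, 767 to 1183 in obese and 759 to 1238 in weight loss libraries, so that lean did not overlap the others. A list of 15 genes of the epididymis, the sperm duct that adjoins this pad, summed to 3.84 to 2877 CPM in lean, 12.0 to 7135 in obese and 3.95 to 66.8 in weight loss libraries. Lcn8, a secreted lipocalin of the epididymis, led that list, with 1161 CPM in lean replicate 1 and 2682 and 2210 CPM in obese replicates 2 and 5. The part of these cells in the levels below was not tested beyond the alternatives given beside each result.

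**Figure D1:**
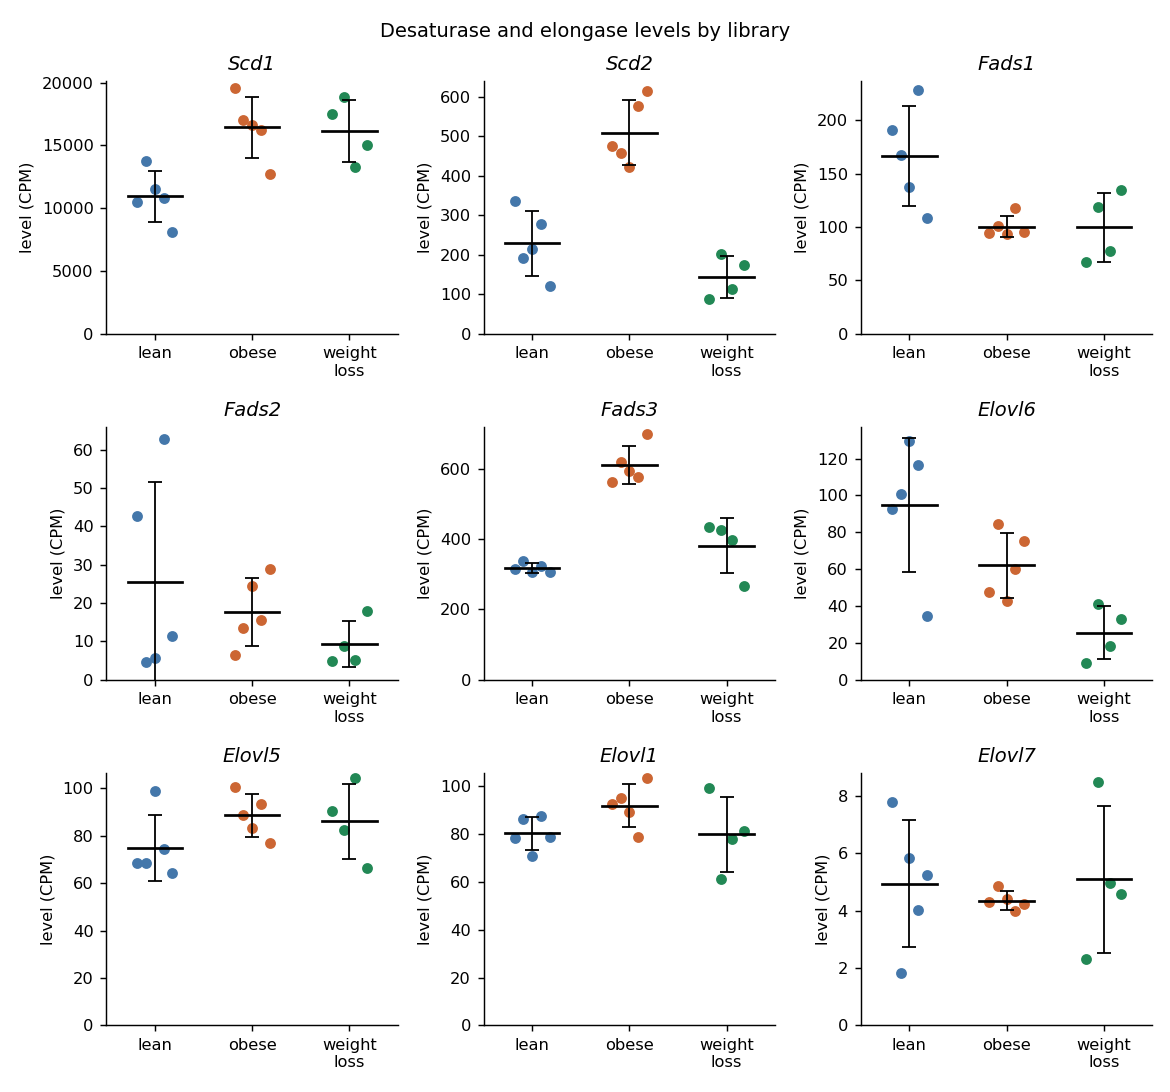
Level of 9 of the genes in each library (points, CPM on linear axes that start at 0), with the mean and SD of each group (bars). Scd1 was high in obese and weight loss libraries alike, Scd2 and Fads3 were high in the obese libraries, and Elovl6 was lowest on average in weight loss.

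Scd1 was the most abundant of the 10 genes in each group. Per kilobase of exon it averaged 2266 CPM in lean, 3399 in obese and 3342 in weight loss libraries, and it took 1.08%, 1.64% and 1.63% of all counts in the same order. Its level was 10473, 13777, 11550, 10833 and 8106 CPM in lean replicates 1 to 5. It was 19550, 17011, 16612, 16216 and 12738 CPM in obese replicates 1 to 5, and 17512, 18815, 13244 and 15014 CPM in weight loss replicates 1 to 4. The highest lean library lay above the lowest obese and the lowest weight loss library, so these ranges overlapped.

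Scd1 rose in obese against lean fat (log2 fold change 0.59 ± 0.15 SE, edgeR adjusted p = 0.0257). Its level in weight loss fat stayed near the obese mean, with 16146 ± 2496 against 16425 ± 2438 CPM (SD, n = 4 and 5). The log2 difference between weight loss and obese was -0.02 with a 95% interval from -0.36 to 0.32 (edgeR adjusted p = 0.970). Against lean, weight loss fat stood 0.56 ± 0.16 (SE) higher on the log2 scale and did not pass (edgeR adjusted p = 0.198). The call against lean was lost without any 1 of lean replicates 4 and 5 and obese replicates 1, 2, 3 and 4, with adjusted p from 0.0511 to 0.0691. It was also lost without the 4 libraries richest in epididymal markers (log2 0.71, edgeR adjusted p = 0.164). Those 4 were lean replicate 1 and obese replicates 2, 4 and 5, so obese replicates 1 and 3 alone were left in the obese group. The call was lost too with adipocyte marker level as a covariate (log2 0.63, edgeR adjusted p = 0.163), with no filter on low counts (adjusted p = 0.0675) and with weight loss replicate 5 included (adjusted p = 0.439).

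Scd2 went with the high fat diet in both directions. It was 338, 192, 216, 279 and 121 CPM in lean replicates 1 to 5, and 476, 459, 422, 578 and 614 CPM in obese replicates 1 to 5. In weight loss replicates 1 to 4 it was 87.7, 201, 114 and 174 CPM. All obese libraries lay above all lean and all weight loss libraries, while lean and weight loss overlapped. Scd2 rose 2.22-fold in obese against lean (log2 1.15 ± 0.26 SE, edgeR adjusted p = 0.0139) and fell by 1.82 ± 0.29 (SE) on the log2 scale from obese to weight loss (edgeR adjusted p = 0.0042). Weight loss against lean gave a log2 difference of -0.67 ± 0.28 (SE) that did not pass (edgeR adjusted p = 0.382).

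Both calls of Scd2 held when any 1 of the 14 libraries was left out. With the epididymal marker level as a covariate the rise was 0.99 on the log2 scale (adjusted p = 0.0547) and the fall -1.53 (adjusted p = 0.0812), and without the 4 richest libraries they were 1.15 (adjusted p = 0.155) and -1.64 (adjusted p = 0.141). With the adipocyte marker level as a covariate the rise was 1.04 (adjusted p = 0.160).

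The balance of the pair does not depend on scaling between libraries. Per kilobase, Scd2 made up 1.83% ± 0.66 (SD, n = 5) of summed Scd1 and Scd2 in lean fat, 2.76% ± 0.84 (n = 5) in obese and 0.787% ± 0.255 (n = 4) in weight loss fat. The lean libraries ranged from 1.22% to 2.78%, the obese from 2.11% to 4.10% and the weight loss libraries from 0.442% to 1.01%. All weight loss libraries lay below all lean and obese libraries, and lean and obese overlapped. These shares carry no test. Scd3 and Scd4, the other mouse copies, averaged 2.65 and 2.62 CPM in lean, 2.72 and 2.28 in obese and 3.16 and 2.65 in weight loss libraries, far below Scd2. Scd1 and Scd2 are near copies and reads could be split between them, so their levels are uncertain. Of the 50-base windows of Scd1, 4.562% also occurred in another gene, a larger percentage than the mean Scd2 share in any group. The first percentage counts stretches of sequence and the second is a share of level, so they are not directly comparable. How much of the Scd2 level and share comes from Scd1 reads was not tested.

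**Figure D2:**
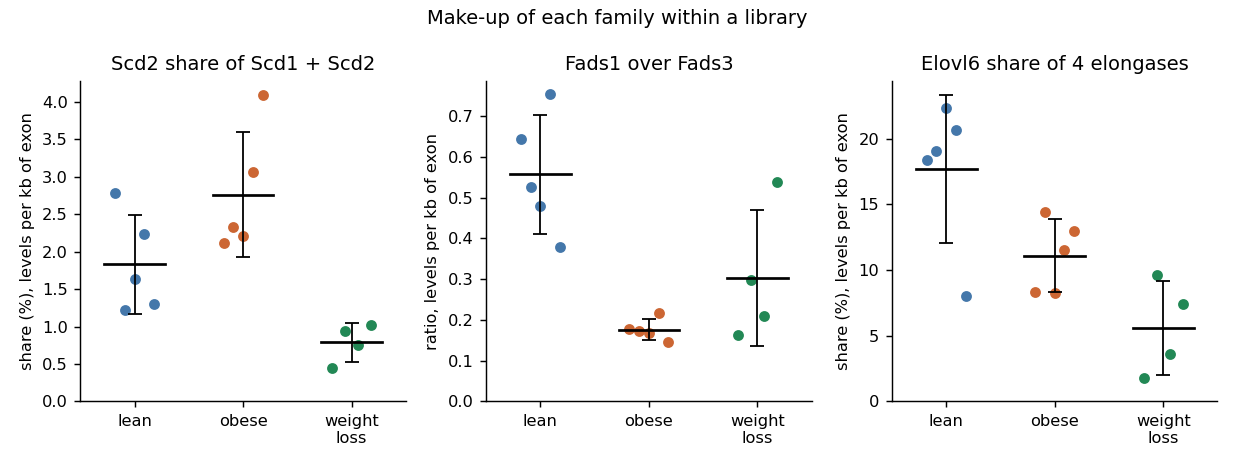
Share or ratio of levels per kilobase within each library (points), with group mean and SD (bars): Scd2 as a share of Scd1 plus Scd2, Fads1 over Fads3, and Elovl6 as a share of Elovl1, Elovl5, Elovl6 and Elovl7. The Scd2 share was lowest in the weight loss libraries, at 0.442% to 1.01%, and the 5 obese Fads1 to Fads3 ratios lay below the 5 lean ones.

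The 3 Fads genes sit side by side on chromosome 19 and differed in their calls in obese fat, where Fads3 rose, Fads1 fell and Fads2 did not pass. In GRCm38 (mm10) Fads3 lies at chr19:10040855-10060113 on the plus strand, Fads2 at chr19:10062765-10101503 on the minus strand and Fads1 at chr19:10182877-10196874 on the plus strand. Fads3 was 316, 339, 306, 322 and 305 CPM in lean replicates 1 to 5. It was 564, 620, 595, 577 and 698 CPM in obese replicates 1 to 5 and 436, 425, 398 and 267 CPM in weight loss replicates 1 to 4. All obese libraries were above all others, and only weight loss replicate 4 lay below the lean range.

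Fads3 rose 1.92-fold in obese against lean fat (log2 0.94 ± 0.12 SE, edgeR adjusted p = 0.000395) and fell by 0.68 ± 0.13 (SE) on the log2 scale from obese to weight loss (edgeR adjusted p = 0.0158). Weight loss against lean was 0.26 ± 0.13 (SE) on the log2 scale (edgeR adjusted p = 0.459). Fads3 had the smallest spread within groups of the 9 genes, with a median SD of 8.72% of the mean. Its rise kept its call in each of the 14 runs that left out a library and with either marker covariate, and missed the threshold without the 4 libraries richest in epididymal markers (log2 0.87, adjusted p = 0.0621). Its fall was lost without obese replicate 5 (log2 -0.63, adjusted p = 0.0526), with only the compared groups in the fit (adjusted p = 0.0506), with the epididymal covariate (log2 -0.61, adjusted p = 0.278), without those 4 libraries (log2 -0.61, adjusted p = 0.506), and with weight loss replicate 5 included (log2 -0.73, adjusted p = 0.0707).

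The promoter of Fads3 is shown because this gene was called in both comparisons and the RefSeq promoter table (GRCm38.p6) holds it. The table held 6 of the 10 genes. The 250 bases before the start in that table are chr19:10041298-10041547 on the plus strand. They lie inside the gene span given above, which begins at 10040855. This window carries 2 CCAAT boxes, 106 and 78 bases before the table's start, and 2 GC boxes, 123 and 34 bases before it, in capitals.
Fads3 promoter: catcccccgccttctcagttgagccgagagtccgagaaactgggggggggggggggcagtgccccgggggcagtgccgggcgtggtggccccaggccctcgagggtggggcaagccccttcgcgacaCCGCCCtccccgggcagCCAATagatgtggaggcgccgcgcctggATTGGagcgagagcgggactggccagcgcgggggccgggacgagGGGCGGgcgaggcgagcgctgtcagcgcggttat
Both strands were searched for the CCAAT box, the GC box written GGGCGG, the E-box written CACGTG and the sterol response element written TCACNCCAC, and for the nuclear receptor direct repeats DR1 and DR4. Of 32851 promoters of that length, 33.85% held a CCAAT box, 32.74% a GC box, 6.021% an E-box, 1.053% a sterol response element, 0.03348% DR1 and 0.01522% DR4. The other 4 motifs had no match in this Fads3 window, and none of the 6 matched in the same window of Elovl6. A match is a run of letters and shows no binding.

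Fads1, the delta-5 desaturase, was 191, 168, 138, 229 and 108 CPM in lean replicates 1 to 5. It was 94.4, 101, 93.4, 118 and 95.7 CPM in obese replicates 1 to 5 and 67.0, 119, 78.0 and 135 CPM in weight loss replicates 1 to 4. The obese libraries lay close together, and lean replicate 5 fell inside their range. Fads1 fell by 0.73 ± 0.21 (SE) on the log2 scale in obese against lean (edgeR adjusted p = 0.0407). Weight loss did not differ detectably from obese, with a log2 difference of -0.01 and a 95% interval from -0.48 to 0.46 (edgeR adjusted p = 0.991). Against lean it was -0.74 ± 0.23 (SE, edgeR adjusted p = 0.235).

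The Fads1 call was lost without lean replicate 1, 2 or 4 or any 1 obese library, with adjusted p from 0.0547 to 0.0927. It was also lost with the epididymal covariate (log2 -0.80, adjusted p = 0.0729), without the 4 richest libraries (log2 -0.77, adjusted p = 0.334) and with the adipocyte covariate (log2 -0.68, adjusted p = 0.287). Set against Fads3 within each library, Fads1 per kilobase was 0.557 ± 0.147 (SD, n = 5) in lean, 0.176 ± 0.0261 (n = 5) in obese and 0.302 ± 0.167 (n = 4) in weight loss fat. The lean ratios ran from 0.378 to 0.755 and the obese from 0.146 to 0.218 without overlap, while the weight loss ratios, 0.164 to 0.538, overlapped both.

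Fads2, the delta-6 desaturase, varied more within groups than any other of the 9 genes, with a median SD of 65.4% of the mean. It was 42.6, 4.68, 5.51, 62.8 and 11.5 CPM in lean replicates 1 to 5. It was 6.42, 13.5, 24.4, 15.6 and 28.8 CPM in obese replicates 1 to 5 and 4.91, 8.84, 5.20 and 17.8 CPM in weight loss replicates 1 to 4. No comparison passed, with log2 differences of -0.52 ± 0.66 (SE) for obese against lean and -0.95 ± 0.71 for weight loss against obese (edgeR adjusted p = 0.685 and 0.615). Weight loss against lean gave -1.47 ± 0.72 (SE, edgeR adjusted p = 0.460).

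High Fads2 stood beside high epididymal markers within each group. Lean replicates 1 and 4, with marker sums of 2877 and 547 CPM, held the 2 highest lean Fads2 levels, and the other 3 lean libraries had sums of at most 19.9 CPM. Obese replicate 1, with a sum of 12.0 CPM, held the lowest obese Fads2 level, and the other 4 obese libraries had sums from 388 to 7135 CPM. Weight loss replicate 4, with 66.8 CPM, held the highest weight loss level. In lean replicate 4 and weight loss replicate 4 Crisp1, a secreted epididymal protein, made up most of the sum (541 and 55.3 CPM), while Lcn8 was at 0.402 and 0.107 CPM. The order was not kept at the top, since obese replicate 2 had the highest sum and a Fads2 level of 13.5 CPM. This pattern was noticed in these libraries, and the part of other tissue in the Fads2 level was not tested.

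**Figure D3:**
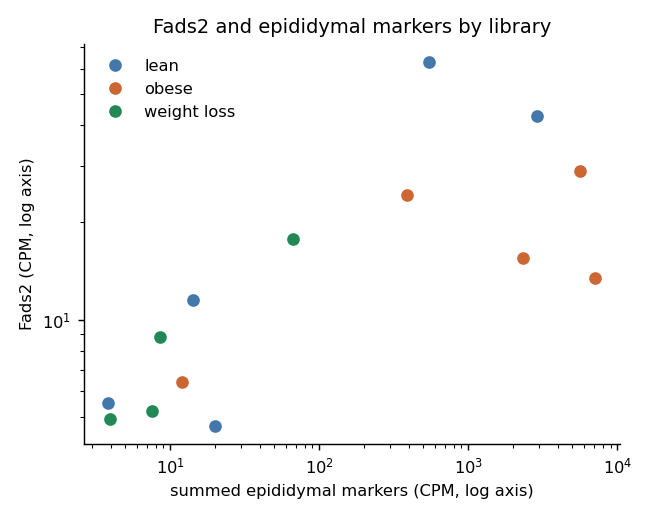
Fads2 level against the summed level of 15 epididymal marker genes in each of 14 libraries (points coloured by group, both axes CPM on log scales). The libraries with sums of 19.9 CPM or less lie at Fads2 levels up to 11.5 CPM, and those with sums of 66.8 CPM or more at 13.5 CPM or above.

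Elovl6, which lengthens palmitate to stearate, was the elongase with the widest range between groups. It was 92.4, 101, 129, 116 and 34.7 CPM in lean replicates 1 to 5. It was 47.3, 84.6, 42.5, 60.3 and 75.0 CPM in obese replicates 1 to 5 and 9.20, 41.2, 18.0 and 32.9 CPM in weight loss replicates 1 to 4. All weight loss libraries lay below all obese libraries, while lean replicate 5 fell within the weight loss range. The lean mean was 3.74 times the weight loss mean.

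None of the Elovl6 differences passed in edgeR's quasi-likelihood test. Weight loss against lean gave a log2 difference of -1.90 ± 0.42 (SE) with an unadjusted p of 0.000424 and an adjusted p of 0.122, in a comparison where 0.0329% of all tested genes were called. Weight loss against obese gave -1.29 ± 0.41 (SE, edgeR adjusted p = 0.148), and obese against lean -0.61 ± 0.38 (SE, edgeR adjusted p = 0.350). DESeq2's Wald test, run as an alternative, called Elovl6 lower in weight loss against both lean (adjusted p = 0.000272) and obese (adjusted p = 0.0205). Over all genes that test called 261 and 691 in the same order, more than edgeR did. In limma-voom Elovl6 was not called against lean (adjusted p = 0.165).

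The share of Elovl6 within its family was lowest in weight loss fat. Per kilobase it made up 17.7% ± 5.61 (SD, n = 5) of summed Elovl1, Elovl5, Elovl6 and Elovl7 in lean fat, 11.1% ± 2.76 (n = 5) in obese and 5.59% ± 3.57 (n = 4) in weight loss fat. The ranges were 8.02% to 22.3%, 8.27% to 14.4% and 1.75% to 9.60%, and each overlapped the next. Scd1 desaturates the stearate that Elovl6 makes. The ratio of Scd1 to Elovl6 per kilobase was 169 ± 75.2 (SD, n = 5) in lean, 367 ± 139 (n = 5) in obese and 1127 ± 875 (n = 4) in weight loss libraries. The lowest weight loss ratio, 579, lay above the highest obese one, 525, and the highest lean one, 297. In weight loss replicates 1 to 4 the ratios were 2416, 579, 932 and 580, so replicate 1 raised the mean. These ratios carry no test.

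For Elovl5, Elovl1 and Elovl7 the highest group mean was at most 1.18 times the lowest. Elovl5, which lengthens polyunsaturated chains, ranged from 64.2 to 98.8 CPM in lean, 77.1 to 101 in obese and 66.6 to 104 in weight loss libraries. Elovl1, which makes very long saturated chains for sphingolipids, ranged from 70.8 to 87.5 CPM in lean, 78.9 to 103 in obese and 61.1 to 99.2 in weight loss libraries. Elovl7 was low, with 1.84 to 7.80 CPM in lean, 3.98 to 4.87 in obese and 2.31 to 8.49 in weight loss libraries. All ranges of these 3 genes overlapped between groups, and none passed in any comparison.

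For obese against lean the log2 difference was 0.24 for Elovl5 (95% interval -0.06 to 0.55), 0.19 for Elovl1 (-0.07 to 0.46) and -0.19 for Elovl7 (-0.95 to 0.57), with edgeR adjusted p of 0.318, 0.369 and 0.799. For weight loss against obese it was -0.04 (-0.36 to 0.28), -0.20 (-0.48 to 0.08) and 0.22 (-0.58 to 1.03) in the same order, with edgeR adjusted p of 0.940, 0.545 and 0.859. Elovl3, an elongase of brown fat and skin glands, had 0 to 18 counts per library. It was at 0 in 3 libraries, where a count of 0 allows up to 0.160 to 0.213 CPM (3 counts, counting error only), and at most 0.588 CPM elsewhere. Markers of brown or beige fat cells, 8 genes led by Cox8b, summed to 25.0 to 68.4 CPM over all 14 libraries.

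Per kilobase, the order of mean levels in lean fat was Scd1, Fads3, Fads1, Scd2, Elovl1, Elovl5, Elovl6, Fads2 and Elovl7. The means were 2266, 86.1, 48.1, 42.0, 41.4, 26.9, 15.4, 8.07 and 1.23 CPM per kilobase. Fads1 and Scd2 differed there by less than the SD of either, as did Scd2 and Elovl1. In obese fat Scd1 at 3399 was followed by Fads3 at 166, Scd2 at 93.4, Elovl1 at 47.3, Elovl5 at 31.9, Fads1 at 29.0, Elovl6 at 10.1, Fads2 at 5.62 and Elovl7 at 1.09 CPM per kilobase. Elovl5 and Fads1 differed there by less than their SD. In weight loss fat the order was Scd1, Fads3 at 103, Elovl1 at 41.1, Elovl5 at 30.9, Fads1 at 28.8, Scd2 at 26.4, Elovl6 at 4.13, Fads2 at 2.92 and Elovl7 at 1.27 CPM per kilobase. There too the middle genes, from Elovl5 to Scd2, differed by less than the spread between libraries.

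**Figure D4:**
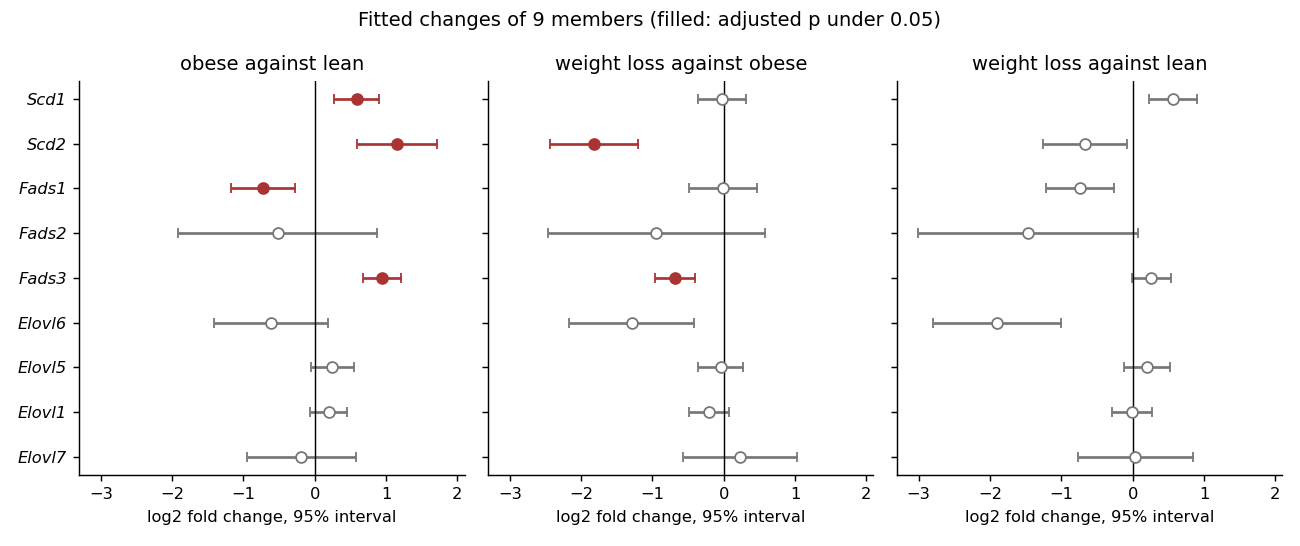
Fitted log2 fold changes of 9 genes in 3 comparisons (points) with 95% intervals (bars), from edgeR's quasi-likelihood fit of 14 libraries, filled where the adjusted p passed. Scd1, Scd2, Fads1 and Fads3 are filled for obese against lean, Scd2 and Fads3 for weight loss against obese, and none for weight loss against lean.

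Counted together, 3 of the 9 tested genes rose (Scd1, Scd2, Fads3) and 1 fell (Fads1) in obese against lean fat, where 9.71% of all tested genes were called, 5.86% higher and 3.85% lower. Their median log2 difference was 0.19, beside -0.02 over all tested genes. Scd2 and Fads3 did not overlap between the groups, and were higher in obese fat, as were 6.04% of all tested genes. In either direction 10.3% of all tested genes did not overlap. From obese to weight loss, 2 of the 9 fell (Scd2, Fads3) and 0 rose, where 1.62% of all tested genes were called, 0.881% lower and 0.736% higher. DESeq2 called 3 of the 9, and 691 genes in all, and limma-voom called 2 of the 9. In edgeR 3 of the 9 had an unadjusted p below 0.05, as did 2174 of all 15208 tested genes. Their median was -0.20, beside 0.02 over all genes, and Scd2, Fads3 and Elovl6 did not overlap and were lower in weight loss, as were 3.27% of all tested genes (6.65% in either direction).

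For weight loss against lean edgeR called 0 of the 9 genes, limma-voom 0 and DESeq2 2 (Elovl6 and Fads1, the latter with an adjusted p of 0.0484). Over all tested genes edgeR called 0.0329%, and DESeq2 called 261 genes. No member's ranges were apart in this comparison, and those of 2.29% of all tested genes were. Scd1, Scd2, Fads1 and Elovl6 had an unadjusted p below 0.05, as did 1739 of all 15208 tested genes. The median of the 9 was -0.01 on the log2 scale. The 3 comparisons share their groups, so each pair of them rests in part on the same libraries.

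Libraries of a group did not vary in the same way for every gene. Lean replicate 5 was the lowest of its group for 6 of the 9 genes: Scd1, Scd2, Fads1, Fads3, Elovl5 and Elovl6. Weight loss replicate 1 was the lowest of its group for Scd2, Fads1, Fads2, Elovl6 and Elovl7, and the highest for Fads3 and Elovl1. In weight loss replicates 1 to 4 Fasn, the fatty acid synthase, was 699, 2060, 566 and 2474 CPM, so that replicates 1 and 3 were low for Fasn as they were for Scd2, Fads1, Fads2 and Elovl6. The macrophage marker sums of the same libraries were 1191, 487, 1126 and 839 CPM, and their part in these levels was not tested.

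Of 8 genes that supply fatty acid precursors, 2 fell and none rose in obese against lean fat, where 3.85% of all tested genes were called lower. From obese to weight loss edgeR called none of the list and 1.62% of all tested genes. Acaca and Acacb, the acetyl-CoA carboxylases that make malonyl-CoA, fell by 1.40 ± 0.28 and 1.42 ± 0.27 (SE) on the log2 scale, from means of 717 and 464 CPM to 272 and 173 CPM (edgeR adjusted p = 0.00752 and 0.00446). In weight loss they averaged 319 and 364 CPM. Fasn, which makes palmitate, averaged 4442, 2157 and 1450 CPM in lean, obese and weight loss libraries. Its obese difference from lean of -1.04 ± 0.38 (SE) did not pass (edgeR adjusted p = 0.0949). Its highest obese level, 2820.4 CPM, all but touched its lowest lean level, 2820.6 CPM. The median log2 difference of the list was -0.44 for obese against lean and -0.35 for weight loss against obese.

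Desaturases take electrons from cytochrome b5 and its reductases. Which of the 6 cytochrome b5 and reductase genes listed here serve the desaturases in this tissue was not tested. Of these 6, Cyb5b, Cyb5r1 and Cyb5r2 rose in obese against lean and none fell, where 5.86% of all tested genes were called higher. The other genes of the list, Cyb5a, Cyb5r3 and Cyb5r4, were not called (log2 0.14, 0.17 and 0.61, edgeR adjusted p = 0.698, 0.324 and 0.0786). Cyb5b, the outer mitochondrial membrane form of cytochrome b5, averaged 376 CPM in lean, 530 in obese and 291 in weight loss libraries. It rose by 0.49 ± 0.14 (SE, edgeR adjusted p = 0.0431) and then fell by 0.87 ± 0.16 (SE) on the log2 scale (edgeR adjusted p = 0.0101), the 1 call of the list from obese to weight loss. Cyb5r1 averaged 31.8, 42.2 and 35.3 CPM, and Cyb5r2 1.65, 6.32 and 3.74 CPM, in lean, obese and weight loss. Of the 6 partner enzymes of the elongation cycle, led in abundance by Tecr, the enoyl-CoA reductase, 0 were called by edgeR in any comparison. Over all tested genes edgeR called 9.71% in obese against lean, 1.62% in weight loss against obese and 0.0329% in weight loss against lean.

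**Figure D5:**
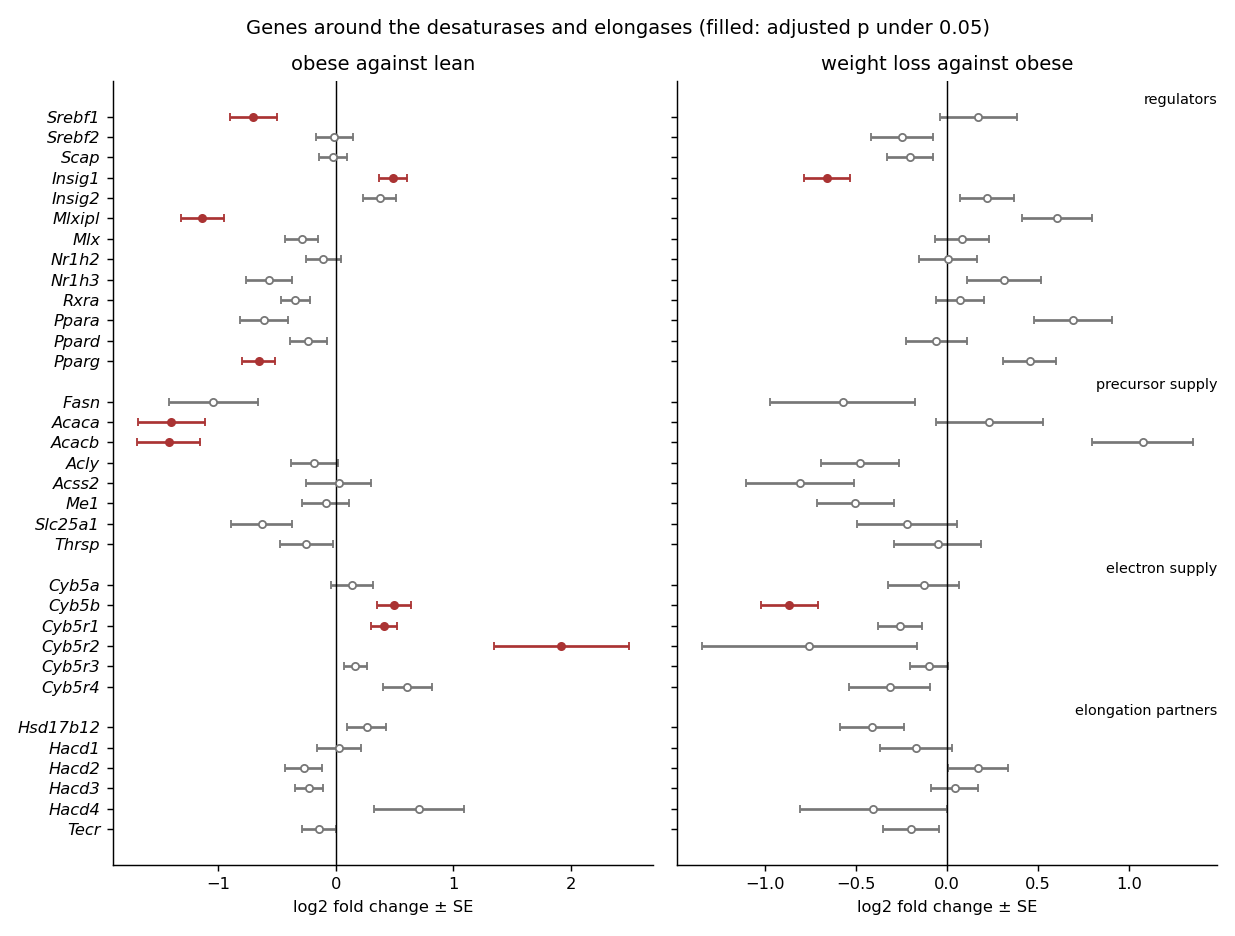
Log2 fold changes (points) with SE (bars) for 4 gene lists around the desaturases and elongases, in obese against lean and weight loss against obese, filled where the edgeR adjusted p passed. Srebf1, Mlxipl and Pparg lie to the left for obese against lean, and Insig1 and Cyb5b are filled on opposite sides in the 2 comparisons.

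Among 13 regulators, 3 fell and 1 rose in obese against lean, where 3.85% of all tested genes were called lower and 5.86% higher. Srebf1, which encodes SREBP-1, averaged 435, 267 and 301 CPM in lean, obese and weight loss libraries and fell by 0.70 ± 0.20 (SE) on the log2 scale in obese fat (edgeR adjusted p = 0.0406). Mlxipl, which encodes the glucose-responsive factor ChREBP, fell by 1.14 ± 0.19 (SE, edgeR adjusted p = 0.00187), and Pparg, the master regulator of fat cells, by 0.66 ± 0.14 (SE, edgeR adjusted p = 0.00915). Scd1, a known target of these factors, rose in the same comparison.

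Insig1, which holds SREBPs in the endoplasmic reticulum, moved in the direction of Scd2. It averaged 106, 149 and 93.9 CPM, rose by 0.49 ± 0.12 (SE) in obese fat (edgeR adjusted p = 0.0183) and fell by 0.66 ± 0.13 (SE) on the log2 scale in weight loss (edgeR adjusted p = 0.0143), the 1 call of the list in that comparison. Of 7 further desaturase and elongase genes, Degs1, the dihydroceramide desaturase, was called in both comparisons. It averaged 267, 353 and 254 CPM, rose by 0.40 ± 0.10 (SE, edgeR adjusted p = 0.0250) and fell by 0.47 ± 0.11 (SE) on the log2 scale (edgeR adjusted p = 0.0457). Of 9 tested acyl-CoA synthetases and phospholipid acyltransferases, Acsl1, which activates fatty acids in fat cells, fell in obese fat, from 1310 to 949 CPM, and averaged 1220 CPM in weight loss. Over all tested genes, 3.85% were called lower and 5.86% higher in obese against lean, and 0.881% lower from obese to weight loss. In none of these lists did edgeR call a gene for weight loss against lean, where 0.0329% of all tested genes were called.

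The genes most like each called member were found among 9675 genes with a mean of at least 10 CPM, by the root mean square difference of centred log2 CPM over 14 libraries. For Scd1 these were Ermp1 (0.16), Glt8d2 (0.17) and Capn2 (0.17), where Scd1 itself spread by 0.35 around its mean on the log2 scale. For Scd2 they were Orm1 (0.39), Aldh1a7 (0.40) and Poln (0.44), where Scd2 spread by 0.88. Orm1, an acute phase plasma protein, averaged 137, 362 and 86.1 CPM in lean, obese and weight loss libraries. For Fads3 they were S100a11 (0.14), Sparc (0.15) and Rtn2 (0.16), where Fads3 spread by 0.44. Sparc, a secreted matrix protein, averaged 1869, 3516 and 2149 CPM. For Fads1 they were Fgfr2 (0.21), H2bc21 (0.24) and Gfra4 (0.27), where Fads1 spread by 0.47. The distances were smallest for Fads3 and Scd1, which spread least, and largest for Scd2, which spread most. Distances of genes with unlike spread are therefore not directly comparable.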

How the data were processed

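Poly(A) RNA of perigonadal fat was sequenced in 15 libraries. The authors deposited expected counts for each Entrez gene ID, as the values show (34.8% are not whole), and the table carries no normalization. The build was mm10 per the submitters' processing notes. For the aligner, counting tool, annotation and strand setting the entry is the same: not given in the sources used here. Counts were rounded to whole numbers. Weight loss replicate 5 fell under a minimum of 1000000 counts and was left out. Genes were filtered with filterByExpr by group, scaled by TMM, and tested in 1 fit of 3 groups with the quasi-likelihood test of edgeR 4.0.16 in R 4.3.3, two-sided, with Benjamini-Hochberg adjustment over 15208 genes and a threshold of 0.05. SE was taken from the F statistic. CPM per kilobase uses the union of GENCODE M21 exons. DESeq2 1.42.0 and limma 3.58.1 (voom) were alternatives, among those listed in the closing section. The adipocyte marker covariate was chosen after seeing the data. The test was checked on simulated data.

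Members, gene lists and alternatives were chosen with earlier results of these data known. The genes named are the members, the called genes of each pathway list with the smallest p (at most 4 a comparison), the most abundant gene of each marker list used, and the 3 genes nearest each called member. Fasn, Scd3, Scd4, Tecr, Cfd and Crisp1 were added after their values were seen. Lists not described elsewhere moved as follows in obese against lean: adipocyte markers, 2 of 10 fell; macrophage, 8 of 10 rose; adipocyte progenitor, led by Ly6a, 3 of 8 rose; endothelial, led by Pecam1, 1 of 6 fell; mesothelial, led by Krt19, 1 of 6 rose; brown or beige, 1 of 7 tested rose; epididymis, 1 of 14 tested rose; male germ cell, led by Prm2, 0 of 3 tested were called by edgeR; blood cell, led by Hba-a1, 1 of 8 rose. From obese to weight loss 1 brown or beige and 1 blood cell gene fell, and no other marker was called. Over all tested genes, 5.86% were called higher and 3.85% lower in obese against lean. From obese to weight loss these shares were 0.736% and 0.881%. Sequences came from the GRCm38 genome with GENCODE M21 and from RefSeq (GRCm38.p6).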

Additional observations from a re-analysis of the deposited data

How the results depend on the processing

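Each member's log2 fold change was computed again under 27 other settings, 729 values in all. Of these 667 kept their direction and side of the threshold, 32 lost the call, 3 gained one (Elovl6 in 2 comparisons and Fads1 in 1, all with DESeq2) and 27 changed sign, 0 of them for a called difference.

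The number of members called for obese against lean was 4, and 2 to 4 when single libraries were left out. It was 2 with the epididymal marker covariate, 0 without the 4 libraries richest in those markers and 1 with the adipocyte marker covariate. For weight loss against obese it was 2, and 1 to 2 with single libraries left out. It was 1 with only the groups compared, 0 with the epididymal covariate, 0 without the 4 richest libraries and 1 with weight loss replicate 5 included. For weight loss against lean it was 0, 0 to 0 with single libraries left out, and 2 with DESeq2. Over all genes, 1477, 246 and 5 were called. DESeq2 called 2260, 691 and 261, the epididymal covariate left 657, 34 and 3, and leaving out the 4 richest libraries 125, 20 and 0. The adipocyte covariate left 204, 278 and 1. The 4 richest libraries were lean replicate 1 and obese replicates 2, 4 and 5, so without them the obese group held only replicates 1 and 3. For the calls lost, the cause was not tested.

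Same replicate numbers showed no clear pairing of these samples: of 13 same-numbered pairs 4 correlated above 0.1, and 3 of 14 libraries correlated best with their own number. With so few libraries in a group, this check cannot show that the samples were unpaired. With a replicate block the members called were 4, 2 and 0, as without it.

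None of the differences that changed sign had passed the threshold. In obese against lean they were Elovl5 with the adipocyte covariate (-0.0183), Elovl7 without the 4 richest libraries (0.0380), and, with single libraries left out, Fads2 (-0.80 to 0.13) and Elovl7 (-0.407 to 0.0375). In weight loss against obese they were Fads1 with limma-voom (0.0146), the epididymal covariate (0.10) and without the 4 richest libraries (0.0857), Elovl5 with the adipocyte covariate (0.12), and, with single libraries left out, Scd1 (-0.110 to 0.0593), Fads1 (-0.20 to 0.14), Elovl5 (-0.150 to 0.0520) and Elovl7 (-0.14 to 0.46). In weight loss against lean they were Elovl1 with library size only (0.0104), the replicate block (0.00019), the epididymal covariate (0.0071) and the adipocyte covariate (0.0295), Elovl7 with the adipocyte covariate (-0.0483), and, with single libraries left out, Elovl1 (-0.13 to 0.10) and Elovl7 (-0.323 to 0.277). Without single libraries the Scd2 share of the Scd pair averaged 1.60% to 1.99% in lean, 2.43% to 2.92% in obese and 0.711% to 0.902% in weight loss fat. Depth limits Elovl3 and, with 26 to 175 counts per library, Elovl7.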
